A study of Rattus norvegicus with 4 samples.

Results

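Of the 27832 features in the expression table of rat middle ear mucosa, 224 carried the name POL, and 66 of these (29.5%) averaged at least 1 FPKM across the 4 libraries. FPKM counts fragments relative to the length of the transcript and to the mapped fragments of the library, so it is a level scaled to length and library size. Every feature whose name, in upper case, was exactly POL was taken, and each one was treated by itself as a separate locus. The name does not mark 1 kind of element. The table described 160 of the 224 features as the Pol polyprotein of LINE-1, and only the other 64 as a Pol or Pro-Pol polyprotein of a retrovirus. The members are therefore called LINE-1 POL and retroviral POL features below.

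Pol is the part of a retroelement that encodes reverse transcriptase, the enzyme that copies the RNA of the element back into DNA. LINE-1 elements lack long terminal repeats, and one of their reading frames encodes the reverse transcriptase together with an endonuclease that nicks the target DNA. Endogenous retroviruses are remnants of infections of the germ line. Their gag gene encodes the capsid, pol the protease, reverse transcriptase and integrase, and env the envelope protein, between 2 long terminal repeats that hold the promoter and the polyadenylation signal. Most copies of both kinds are truncated or mutated, and transcripts of a gene can also run through a silent copy that lies inside it.

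The 4 libraries came from the scraped mucosa of the bulla of SD rats, 1 library per group. The media group was given medium only, the MRSA group methicillin-resistant Staphylococcus aureus, the PA group Pseudomonas aeruginosa, and the MRSA + PA group both species together. The labels describe an injection of 50 µL through the eardrum of the right ear, in a text that names MRSA for all 4 samples, and collection at 1 week. Neither the age of the rats nor the number of rats behind a library was given in the labels. With 1 library per group, no difference had a replicate check and no test was made. All differences below are between single libraries, and the 3 comparisons with media share the media library.

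The libraries differed in the levels of cell type markers. The summed FPKM of 10 skeletal muscle markers, in the order media, MRSA, PA and MRSA + PA, was 7211, 2698, 10.8 and 4.71, and all 10 markers were at least 2-fold lower than media in each inoculated library. The sum of 5 erythroid markers was 11601, 2266, 1165 and 2125, and all 5 were lower in the same way. The sum of 10 epithelial markers was 26439, 12479, 9675 and 14861. Of it BPIFA1, a secreted airway protein, alone held 25725, 11118, 7472 and 13362, and the other 9 markers summed to 715, 1361, 2203 and 1499. Of these 9, SCGB1A1 alone held 248, 807, 1537 and 1000. In MRSA + PA, EPCAM, BPIFB1, FOXJ1, MUC5B and MUC16 were below media, and CDH1, KRT8, KRT18 and SCGB1A1 above it. The sum of 8 T cell markers was 114, 322, 330 and 291, that of 6 B and plasma cell markers 45.9, 263, 127 and 146, and that of 6 macrophage markers 353, 1566, 1103 and 984. IGJ held 30.2, 229, 101 and 122 of the B and plasma cell sum. GPNMB held 177, 1187, 743 and 648 of the macrophage sum, while CD163 had 5.93, 6.47, 12.7 and 5.77. In such bulk tissue, fewer cells of a type and less RNA per cell cannot be told apart. The part of these shifts in the POL values was not tested.

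Summed per library in the same order, the 224 POL features held 762, 706, 667 and 587 FPKM. They lay on 21 chromosomes, with the highest counts on chromosomes 1 (33), 2 (23), X (19), 13 (16) and 7 (16). The table placed 188 of them outside the gene annotation, called unannotated below, and gave 27 as known and 9 as new isoforms, and gave no strand for 153. They spanned from 191 to 316733 bp, with a median of 1846.5 bp. By the protein each feature was matched to, 46 of the 64 retroviral features were of gammaretroviral type, the group of murine and feline leukaemia viruses. A further 16 were of betaretroviral type, the group of Mason-Pfizer monkey virus and mouse mammary tumour virus, and 2 were of foamy virus type. The match names the nearest protein in the database used, not a virus present in the rats. Coordinates below are those of the table, which names no genome build.

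The 158 features with a mean under 1 FPKM had a median of 0.332 FPKM, and no library value among them exceeded 2.34 FPKM. In 21 of the 158, at least 1 library reached 1 FPKM. The features nearest to the limit were all LINE-1 POL on the outside, XLOC_002356 at a mean of 0.984 FPKM, XLOC_002231 at 0.949 FPKM and XLOC_010782 at 0.909 FPKM. Just inside were 2 LINE-1 POL features, XLOC_024101 at 1.02 FPKM and XLOC_007379 at 1.03 FPKM, and 1 retroviral POL feature, XLOC_027814 at 1.08 FPKM. Most POL features were therefore weakly represented in poly(A) RNA of this tissue, whichever library was read.

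The low group still held features whose levels differed widely between libraries, and some of them were listed in part of the libraries only. The retroviral POL feature XLOC_024069 had 2.30 FPKM in media, 1.32 FPKM in MRSA and was listed at 0 in PA and in MRSA + PA. XLOC_010064, also retroviral, had 1.95 FPKM in media and 0.514 FPKM in MRSA and was listed at 0 in the same pair of libraries. The LINE-1 POL feature XLOC_027382 had 2.34, 0.700, 0.0812 and 0.120 FPKM. These 3 were thus highest in media and lowest in the libraries that received PA. Other low features went another way. The retroviral XLOC_013048 had 0.607, 0.536, 0.964 and 1.33 FPKM, and the LINE-1 XLOC_024116 had 0.0794, 0.354, 0.411 and 1.03 FPKM. Both were highest in MRSA + PA, so the pattern of the first 3 does not stand for the low group. Among the low features that the study listed in its own tables, the retroviral POL XLOC_027795 went from 0.633 FPKM in media to 0.0801, 0.0524 and 0 FPKM, and the LINE-1 POL XLOC_017904 from 0.687 FPKM to 0.0716, 0.210 and 0 FPKM. XLOC_007324, retroviral, had 0.445, 0.598, 0.764 and 0 FPKM, so that it was missing from the MRSA + PA library alone.

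**Figure D1:**
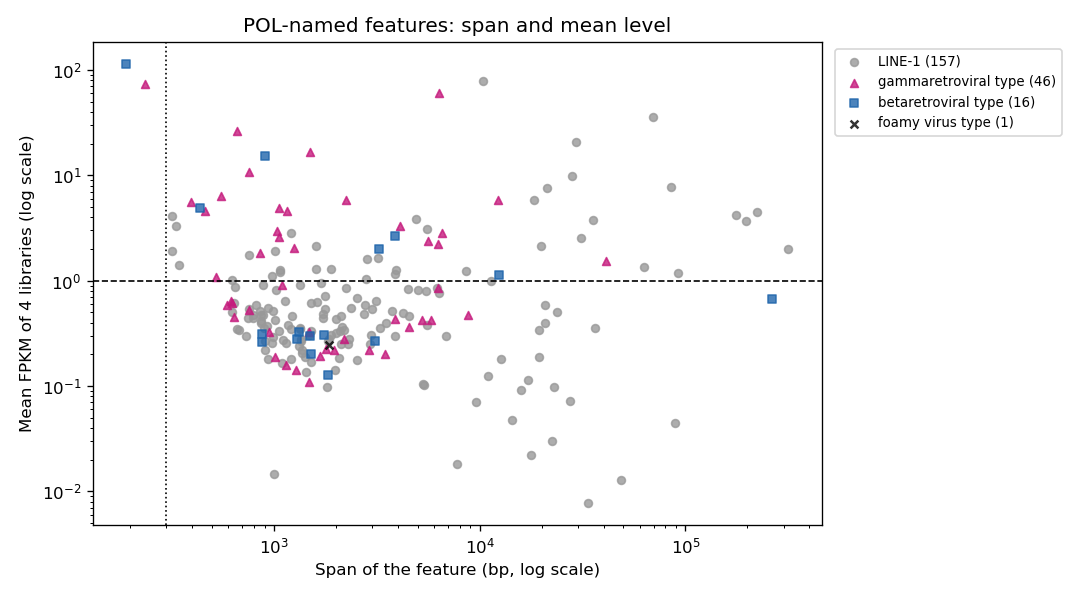
Span of each POL-named feature in bp (x axis, log scale) against its mean FPKM over the 4 libraries (y axis, log scale), with LINE-1 as circles, gammaretroviral type as triangles, betaretroviral type as squares and foamy virus type as a cross. The dotted line marks 300 bp and the dashed line 1 FPKM. The 4 features at 0 in every library are not drawn, 2 points lie left of the dotted line, and the points above the dashed line are the 66 features described.

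Of the 66 features that reached this mean, 38 were LINE-1 POL (23.8% of the 160) and 28 were retroviral POL (43.8% of the 64). The 28 comprised 22 of gammaretroviral type and 6 of betaretroviral type, and neither foamy virus feature was among them. Features matched to murine leukaemia virus made up 19 of the 22, and 19 of all 24 features matched to that virus passed the limit. The retroviral POL features were short, with a median span of 1106.5 bp against 4419.5 bp for LINE-1 POL, and 24 of the 28 had no strand, against 14 of the 38. All 28 were unannotated, whereas the 38 held 29 unannotated features, 2 known ones and 7 new isoforms. Without a strand, transcripts that read an element in its own direction and transcripts that read it backwards cannot be told apart.

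Only 2 of the 224 features were under 300 bp, and both passed 1 FPKM and stood among the 3 highest means. XLOC_015643, a betaretroviral POL feature of 191 bp at chr20:150706-150896, was listed at 0 in media and had 85.6 FPKM in MRSA, 228 FPKM in PA and 139 FPKM in MRSA + PA. It was held by all 3 inoculated libraries and lacked by the media library, and no fold can be given against a library at 0. XLOC_027796, a gammaretroviral POL feature of 237 bp at chrX:58537270-58537506, had 160 FPKM in media, 82.6 FPKM in MRSA, 30.3 FPKM in PA and 22.2 FPKM in MRSA + PA. The 2 short features thus ran in opposite directions across the libraries.

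FPKM is divided by length, so a few fragments weigh heavily on features of this size. The 158 features under 300 bp that averaged at least 1 FPKM summed to 913618, 1284075, 1022766 and 736307 FPKM, more than the 776342, 748547, 690386 and 757750 FPKM of the 15786 longer ones in 3 of the 4 libraries. Among those 158 short features, 20.9% were listed at 0 in at least 1 library. Near XLOC_015643, a gag feature 1368 bp away had 0, 0.580, 2.52 and 1.20 FPKM, and another 1969 bp away had 0.174, 0.471, 2.07 and 1.62 FPKM. Both were lowest in media and highest in PA, as the POL feature was, but at far lower levels.

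Among the other 64 features, of at least 300 bp, 4 were listed at 0 in a library. The media library lacked XLOC_009935 and XLOC_025642, the MRSA library XLOC_015652 and the MRSA + PA library XLOC_003476, and the PA library lacked none. With XLOC_015643, 5 of the 66 features were at 0 in at least 1 library, against 1.86% of all 15944 features that averaged at least 1 FPKM and 6.99% of the other unannotated features without strand. By library, media listed 3 of the 66 at 0 against 0.997% of all features, MRSA 1 against 0.521%, PA 0 against 0.483% and MRSA + PA 1 against 1.02%. Over all 224 POL features, media listed 16 at 0, MRSA 18, PA 9 and MRSA + PA 17, and 4 of these were at 0 in every library.

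XLOC_003476, a gammaretroviral POL feature of 1498 bp at chr1:85735103-85736600, was held by some libraries and lacked by others. It had 40.0 FPKM in media and 27.1 FPKM in MRSA, but 0.0300 FPKM in PA, and was listed at 0 in MRSA + PA. Media and MRSA were alike in holding it and both libraries with PA lacked it or nearly so. A separate gag feature elsewhere in the table, XLOC_003563 of 872 bp on chromosome 1, had 31.4, 27.5, 0 and 0.0641 FPKM. The skeletal muscle markers given above also had high levels in media and MRSA and were near 0 in the libraries with PA. The part of tissue makeup in the levels of XLOC_003476 was not tested.

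The 22 gammaretroviral POL features above the limit of 1 FPKM were mostly lower in the inoculated libraries. Their summed level was 487 FPKM in media, 274 FPKM in MRSA, 137 FPKM in PA and 98.5 FPKM in MRSA + PA. The media library held the highest value for 19 of the 22, against 29.0% of all features and 36.7% of the 815 other unannotated features without strand. In 15 of the 22, the level declined in the order media, MRSA, PA, MRSA + PA, an order that 6.63% of all features and 9.82% of the other unannotated features without strand showed. The split of the POL features by virus type was made after their values had been seen, so these counts are a description. The limit of 1 FPKM is on the mean of all libraries, so a high media value alone can carry a feature past it. XLOC_011649 passed in this way, with 8.19 FPKM in media and 0.699, 0.612 and 0.119 FPKM in MRSA, PA and MRSA + PA. The counts of this paragraph were not made without the limit.

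Counts of features at least 2-fold apart were made on log2 ratios, with 0.1 FPKM added to each library. Of the 22, 9 were at least 2-fold lower than media in MRSA, where 4.95% of all features and 15.6% of the other unannotated features without strand were. This count was 14 with equal FPKM sums, 5 with 1 FPKM added and 2 at a log2 difference of at least 1.5. In PA 19 were lower, against 7.80% and 18.0%, and in MRSA + PA 17 were lower, against 7.83% and 21.1%. The only one of the 22 at least 2-fold higher in any of the 3 comparisons was XLOC_026757 in PA. Without the limit on the mean, more of the 46 gammaretroviral features were higher. They were then 3 higher and 15 lower for MRSA, 8 and 25 for PA, and 3 and 24 for MRSA + PA. The median log2 difference of the 22 from media was -0.93 for MRSA, -1.69 for PA and -2.39 for MRSA + PA, while the medians of all features were 0.05, 0.07 and 0.05. At the median, the difference from media was therefore smallest in MRSA and largest in MRSA + PA.

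**Figure D2:**
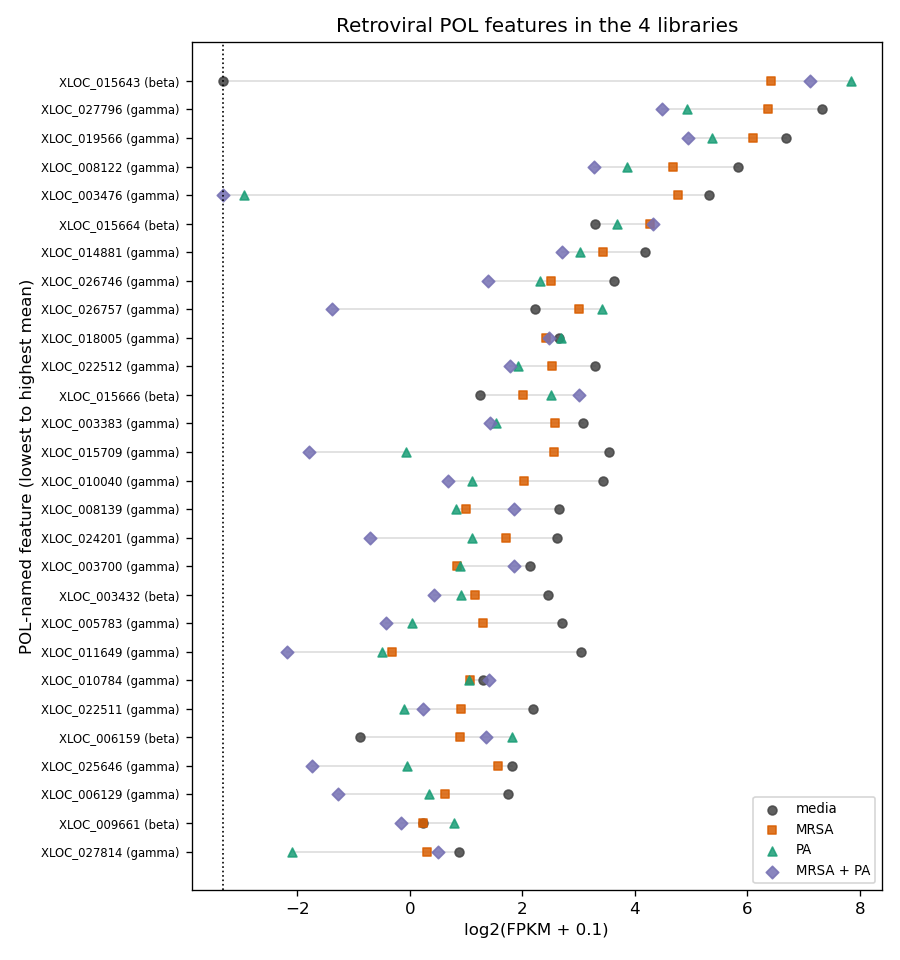
Level of each of the 28 retroviral POL features in the 4 libraries, as log2(FPKM + 0.1) (x axis), with features ordered by mean from bottom to top (y axis), each with its type. Circles are media, squares MRSA, triangles PA and diamonds MRSA + PA, 1 library each, and the dotted line is where a value of 0 FPKM falls. In 20 of the 28 features the media circle is the rightmost mark, while XLOC_015643 at the top has its media circle on the dotted line.

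The highest mean among the retroviral POL features of at least 300 bp was that of XLOC_019566, 6335 bp at chr4:149270575-149276909 and without strand. It had 102 FPKM in media, 68.9 FPKM in MRSA, 41.3 FPKM in PA and 30.6 FPKM in MRSA + PA. It overlapped the feature XLOC_018289, which has no gene name and declined in the same order with 5.995, 2.95, 2.63 and 1.42 FPKM, and the part of this overlap in its level was not tested. Its log2 difference from media was -0.57 for MRSA, -1.31 for PA and -1.74 for MRSA + PA, so that it was past 2-fold only in the libraries with PA. XLOC_008122, 660 bp at chr13:26430205-26430864, had 56.6, 25.5, 14.4 and 9.63 FPKM. The gag feature XLOC_008123, 1665 bp from it, had 32.9, 14.3, 6.25 and 4.32 FPKM, so the gag and pol features of this place declined side by side. Whether both belong to 1 transcript was not tested.

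Some other pairs of retroviral neighbours ran in parallel as well. On chromosome 6, the POL features XLOC_022512 (394 bp) and XLOC_022511 (1245 bp) lay 686 bp apart and had 9.72, 5.67, 3.69 and 3.33 FPKM and 4.47, 1.77, 0.827 and 1.08 FPKM. On chromosome 11, XLOC_006129 had 3.24, 1.45, 1.16 and 0.313 FPKM, and a gag-pol feature 232 bp from it had 2.64, 0.893, 1.08 and 0.308 FPKM. In both places media was highest, and in the second the MRSA + PA library was lowest for both features. XLOC_006129 spanned 41291 bp, longer than an intact provirus. Not every pair of POL neighbours ran in parallel. The LINE-1 POL features XLOC_003547 and XLOC_003548, 135 bp apart on chromosome 1, had 2.03, 2.52, 3.56 and 3.30 FPKM and 1.70, 1.82, 1.10 and 2.44 FPKM. PA was highest for the first and lowest for the second.

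The features furthest below media lay on separate chromosomes. XLOC_011649, 5605 bp on chromosome 17, had 8.19 FPKM in media and 0.699, 0.612 and 0.119 FPKM in the inoculated libraries, and its log2 difference of -3.38 was the lowest of the 66 in MRSA. It overlapped a feature without a gene name whose level was 11.5, 9.27, 12.9 and 8.60 FPKM, so the overlapping feature did not show the decline. XLOC_015709, 462 bp on chromosome 20, had 11.5, 5.83, 0.853 and 0.188 FPKM, with log2 differences of -0.97, -3.60 and -5.33. XLOC_010040, 1157 bp on chromosome 15, had 10.7, 3.97, 2.06 and 1.49 FPKM, and XLOC_005783, 1055 bp on chromosome 10, had 6.43, 2.38, 0.927 and 0.644 FPKM. XLOC_024201 on chromosome 7, with 6.03, 3.19, 2.06 and 0.511 FPKM, and XLOC_025646 on chromosome 8, with 3.44, 2.87, 0.864 and 0.199 FPKM, were lowest in MRSA + PA by a wide step. All 6 had their highest level in media and their lowest in MRSA + PA.

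Milder declines were seen in XLOC_014881 on chromosome 2, with 18.1, 10.8, 8.07 and 6.41 FPKM, and in XLOC_026746 on chromosome 9, the 1 feature matched to feline leukaemia virus, with 12.3, 5.63, 4.87 and 2.52 FPKM. XLOC_003383 on chromosome 1 followed with 8.40, 5.89, 2.78 and 2.57 FPKM. These features kept the same order of libraries with steps of smaller size.

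Some gammaretroviral POL features did not follow this order. XLOC_026757, 2234 bp on chromosome 9, had 4.55 FPKM in media, 7.92 FPKM in MRSA and 10.6 FPKM in PA but 0.281 FPKM in MRSA + PA. XLOC_027814, on chromosome X, was lowest in PA, with 1.73, 1.13, 0.134 and 1.32 FPKM. XLOC_008139, matched to baboon endogenous virus, had 6.18, 1.91, 1.67 and 3.53 FPKM, and XLOC_003700, which overlapped Rcl1, had 4.31, 1.69, 1.76 and 3.51 FPKM, so both were lower in the single-species libraries than in MRSA + PA. XLOC_018005, matched to gibbon ape leukaemia virus, had 6.17, 5.29, 6.33 and 5.46 FPKM, and XLOC_010784, which overlapped Ing2, had 2.36, 1.99, 1.96 and 2.56 FPKM. The last pair stayed within 2-fold of media in all 3 inoculated libraries.

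The 6 betaretroviral POL features were mostly above media, 5 of them for MRSA, 5 for PA and 4 for MRSA + PA. Their sum was 18.8, 114, 254 and 171 FPKM, of which the 191 bp feature XLOC_015643 held 0, 85.6, 228 and 139 FPKM. Past 2-fold above media were 2 of the 6 for MRSA, 3 for PA and 4 for MRSA + PA, where 8.47%, 10.05% and 7.78% of all features were higher. XLOC_006159 on chromosome 11, matched to jaagsiekte sheep retrovirus, had 0.443, 1.75, 3.43 and 2.45 FPKM, with log2 differences of 1.77, 2.70 and 2.23. XLOC_015664 and XLOC_015666, both on chromosome 20 and both matched to Mason-Pfizer monkey virus, had 9.66, 19.2, 12.7 and 19.96 FPKM and 2.28, 3.93, 5.57 and 7.90 FPKM. The second of these overlapped HA12_RAT, a class I histocompatibility antigen that presents peptides to T cells, which had 95.1, 186, 120 and 144 FPKM. XLOC_015664 overlapped a feature without a gene name that had 18.8, 35.1, 38.4 and 40.7 FPKM. XLOC_006159 overlapped another such feature, with 0.193, 0.258, 1.49 and 0.268 FPKM. The part of these overlaps in the POL levels was not tested.

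XLOC_006159, XLOC_015664 and XLOC_015666 were above media in every inoculated library, although not all past 2-fold. XLOC_003432 on chromosome 1, the third feature matched to Mason-Pfizer monkey virus, declined instead with 5.36, 2.13, 1.77 and 1.25 FPKM. XLOC_009661 on chromosome 15 stayed within 2-fold with 1.08, 1.08, 1.62 and 0.801 FPKM. Over all 28 retroviral POL features, 10 were at least 2-fold lower and 2 higher than media in MRSA, 20 lower and 4 higher in PA, and 18 lower and 4 higher in MRSA + PA. Lower than media were 4.95%, 7.80% and 7.83% of all features, and higher were 8.47%, 10.05% and 7.78%. The sum of the 28 was 506, 388, 391 and 270 FPKM, and 506, 302, 162 and 131 FPKM without XLOC_015643. XLOC_015643 alone thus held 228 of the 391 FPKM in PA.

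**Figure D3:**
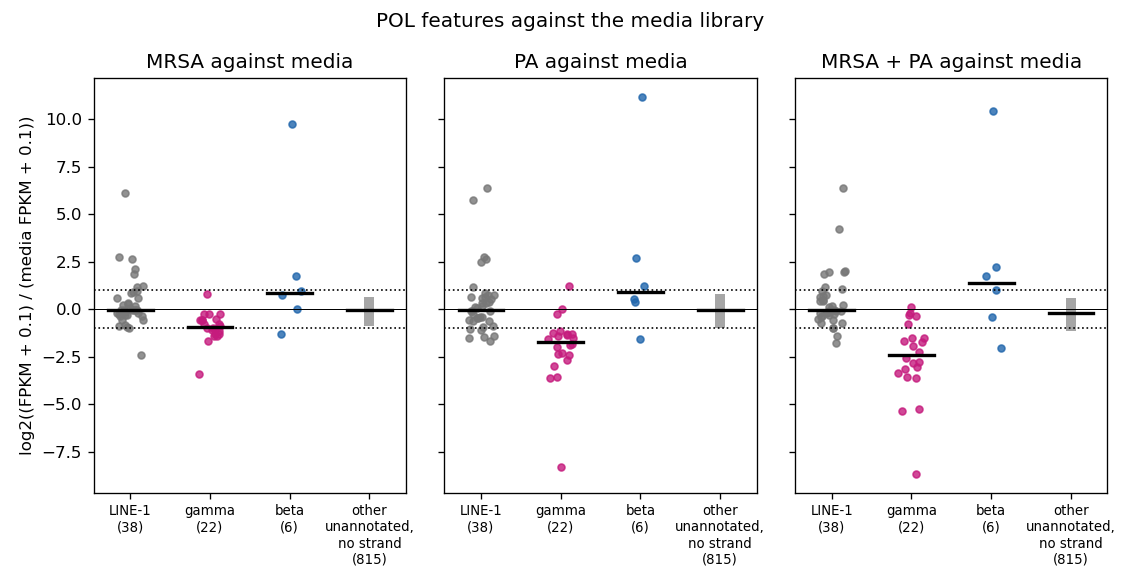
Log2 difference from media with 0.1 FPKM added (y axis) for each of the 66 POL features, by type (x axis), in 1 panel per inoculated library. Points are features, black lines medians, dotted lines 2-fold, and the grey bar gives the middle 50% of the 815 other unannotated features without strand. The gammaretroviral median is at -0.93, -1.69 and -2.39 in the 3 panels, while the LINE-1 median is at -0.02, -0.01 and -0.03.

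The 38 LINE-1 POL features above the limit showed no common shift from media. Their median log2 difference was -0.02 for MRSA, -0.01 for PA and -0.03 for MRSA + PA. All 3 inoculated libraries were within 2-fold of media for 21 of the 38 (55.3%). This held for 76.6% of all features and 50.7% of the other unannotated features without strand. Of the 38, 7 were at least 2-fold higher and 1 lower than media in MRSA, 6 higher and 6 lower in PA, and 8 higher and 2 lower in MRSA + PA. Over all features, 8.47% were higher and 4.95% lower for MRSA, 10.05% and 7.80% for PA, and 7.78% and 7.83% for MRSA + PA. Over the other unannotated features without strand these shares were 13.6% and 15.6%, 15.0% and 18.0%, and 12.1% and 21.1%. With the libraries rescaled to equal FPKM sums, the MRSA split was 5 higher and 5 lower, and with median-of-ratios scaling the MRSA + PA split was 8 and 4. Their summed level was 186, 265, 218 and 267 FPKM, and the media library held the highest value for 12 of them.

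The LINE-1 sum was carried by few features. XLOC_007614, 10397 bp at chr13:94796751-94807147, had 48.2 FPKM in media, 90.5 FPKM in MRSA, 70.6 FPKM in PA and 108 FPKM in MRSA + PA. A 334 bp LINE-1 POL feature 1473 bp from it, XLOC_008191, had 1.49, 5.62, 0.404 and 5.71 FPKM, high in the same pair of libraries, MRSA and MRSA + PA, but lowest in PA. XLOC_008114, 69788 bp on chromosome 13, had 23.4, 55.3, 25.3 and 39.0 FPKM and was at least 2-fold above media in MRSA. XLOC_017495, 29251 bp on chromosome 3, was highest in media, with 30.8, 15.6, 16.3 and 20.8 FPKM. XLOC_027677 on chromosome X had its highest level in PA, with 8.87, 8.06, 15.2 and 7.30 FPKM. No library was the highest in all of these features. XLOC_007614, XLOC_008114, XLOC_017495 and XLOC_027677 were given as new isoforms and not as unannotated features. The part of annotated transcripts in their levels was not tested.

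**Figure D4:**
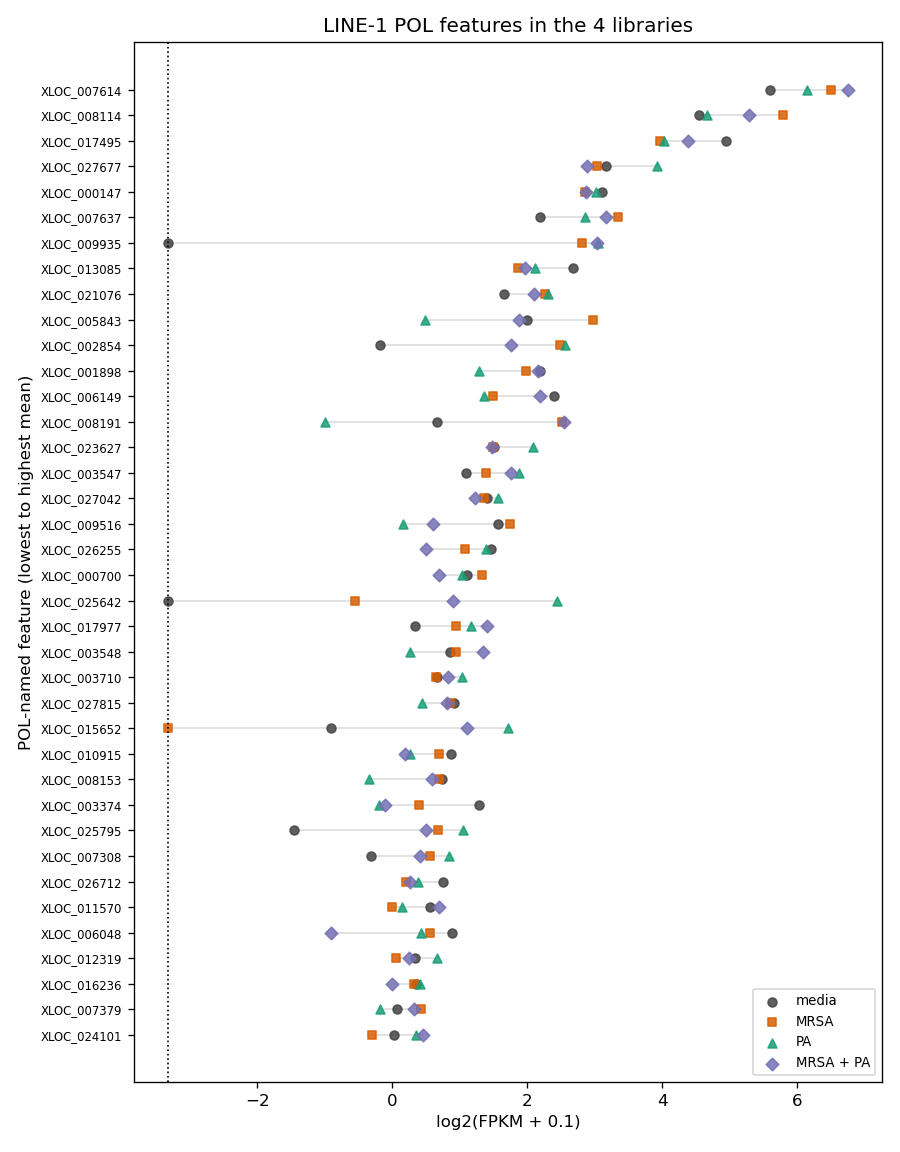
Level of each of the 38 LINE-1 POL features in the 4 libraries, as log2(FPKM + 0.1) (x axis), with features ordered by mean from bottom to top (y axis). Circles are media, squares MRSA, triangles PA and diamonds MRSA + PA, 1 library each, and the dotted line is where 0 FPKM falls. In 21 of the 38 features all 3 inoculated libraries are within 2-fold of media, and in 12 of the 38 the media circle is the rightmost mark.

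LINE-1 POL features often lay in or beside genes. A named gene that is no retroelement overlapped 10 of the 38 and lay within 10 kb of 22, against 3 and 7 of the 28 retroviral POL features. Any other feature, named or not, overlapped 13 of the 38 and 9 of the 28, which is a smaller contrast. The LINE-1 POL features were also longer, with a median span of 4419.5 bp against 1106.5 bp. The same shares were not computed for all features or for features of like span. The median distance to such a gene was 4724 bp for LINE-1 POL and 23538 bp for retroviral POL. XLOC_000147, 85322 bp on chromosome 1, overlapped Igf2r, the receptor that takes insulin-like growth factor 2 and lysosomal enzymes from the cell surface. It had 8.53, 7.13, 8.04 and 7.25 FPKM, and Igf2r had 31.5, 42.3, 43.2 and 36.5 FPKM, so neither was 2-fold apart between media and any inoculated library. XLOC_007637, 21163 bp on chromosome 13, overlapped the olfactory receptor feature OR6N1 and had 4.45, 10.04, 7.13 and 8.89 FPKM. It was above media in all 3 inoculated libraries and past 2-fold in MRSA. OR6N1 had 0.515, 1.85, 1.46 and 1.69 FPKM, with the same order of libraries. The part of this overlap in the level of XLOC_007637 was not tested.

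Leukocyte genes were next to some of the LINE-1 POL features that were furthest above media. XLOC_002854, 4913 bp on chromosome 1, had 0.783, 5.52, 5.82 and 3.30 FPKM, with log2 differences of 2.67, 2.74 and 1.94. It lay 929 bp from Itgam, which encodes the CD11b integrin of neutrophils and macrophages and had 8.03, 39.3, 40.1 and 33.1 FPKM. XLOC_025795, 1064 bp on chromosome 8, had 0.265, 1.51, 1.97 and 1.32 FPKM, and it overlapped Ccr3, the eotaxin receptor of eosinophils, which had 0.836, 2.30, 2.88 and 1.33 FPKM. In both cases the feature and the gene had the same order of libraries, media lowest and PA highest. The T cell, B cell and macrophage marker sums given above were also lowest in media. The part of the neighbouring genes and of cell makeup in the levels of both features was not tested.

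The remaining LINE-1 POL features with a gap in 1 library were of varied size. XLOC_009935, 18425 bp on chromosome 15, was listed at 0 in media and had 6.91, 8.20 and 8.11 FPKM in the inoculated libraries, and its nearest named gene was Irg1, 25656 bp away. Irg1 had 1.47, 24.1, 18.2 and 17.1 FPKM and was lowest in media too. The part of Irg1 in the level of XLOC_009935 was not tested. XLOC_025642, 318 bp on chromosome 8, was also listed at 0 in media and had 0.582, 5.35 and 1.76 FPKM. XLOC_015652, 347 bp on chromosome 20, had 0.433 FPKM in media, was listed at 0 in MRSA, and had 3.19 FPKM in PA and 2.06 FPKM in MRSA + PA. XLOC_009935 was close to even among the inoculated libraries, while both short features were highest in PA. XLOC_005843, 319 bp on chromosome 11, was the reverse of these, with 3.90, 7.76, 1.29 and 3.56 FPKM and its lowest level in PA.

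All POL features counted as 1 set gave a mixed count, since both kinds enter it. Of the 66, 9 were at least 2-fold higher and 11 lower than media in MRSA, 10 higher and 26 lower in PA, and 12 higher and 20 lower in MRSA + PA. The shares of all features were 8.47% and 4.95%, 10.05% and 7.80%, and 7.78% and 7.83%, and those of the other unannotated features without strand 13.6% and 15.6%, 15.0% and 18.0%, and 12.1% and 21.1%. With equal FPKM sums, a scaling that moves the median of all features to -0.21 in MRSA and 0.23 in MRSA + PA, the MRSA split became 7 higher and 20 lower. The retroviral count of lower features was between 10 and 15 in MRSA and 19 or 20 in PA over the 3 rescalings, and stayed at 18 in MRSA + PA.

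The inoculated libraries were also set against each other. In MRSA + PA against MRSA, 3 of the 66 POL features were at least 2-fold higher and 17 lower, where 1.61% and 5.73% of all features were, and 14 of the 17 were gammaretroviral. With equal FPKM sums this split was 9 and 10. In MRSA + PA against PA, 5 were higher and 9 lower, against 2.50% and 4.27% of all features. That split was 9 and 8 with equal FPKM sums and 3 and 12 with sums over features of at least 300 bp. In MRSA against PA, 13 were higher and 3 lower, against 5.03% and 3.54%, and the split was 9 and 5 with equal FPKM sums and 10 and 5 with sums over features of at least 300 bp.

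The largest steps between inoculated libraries came from features already described. XLOC_003476 was the furthest below MRSA in MRSA + PA and the furthest above PA in MRSA. XLOC_026757 was the furthest below PA in MRSA + PA, with a log2 difference of -4.82, and XLOC_015709 stood at -4.36 against MRSA. Above PA in MRSA + PA were XLOC_008191, XLOC_027814 and XLOC_005843, each of which had its lowest level in PA.

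Features with other retroelement names gave a background for the POL features. Among 15 GAG-POL features that averaged at least 1 FPKM, 3 were at least 2-fold lower than media for MRSA, 6 for PA and 11 for MRSA + PA, and 2, 2 and 1 were higher. The GAG-POL feature XLOC_012347, on chromosome 18, had 15.9, 28.9, 9.02 and 0.841 FPKM, and XLOC_009030, 276 bp on chromosome 14, had 15.7, 38.1, 11.4 and 0 FPKM. Both were highest in MRSA and lowest in MRSA + PA, whereas media was highest in 9 of the 15 GAG-POL features. Of 12 GAG features, 5 were higher and 3 lower in MRSA, 4 higher and 6 lower in PA, and 3 higher and 8 lower in MRSA + PA. Of 5 ENV features, 2 were higher and none lower for MRSA, 2 higher and 1 lower for PA, and 1 higher and none lower for MRSA + PA. Among all features, 4.95%, 7.80% and 7.83% were lower for MRSA, PA and MRSA + PA, and 8.47%, 10.05% and 7.78% were higher. Among the other unannotated features without strand, 15.6%, 18.0% and 21.1% were lower, and 13.6%, 15.0% and 12.1% were higher. The ENV feature with the highest mean, XLOC_002876, had 10.9, 8.86, 9.33 and 8.75 FPKM.

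Genes that silence retroelements were close to even between libraries. Of 20 such genes that averaged at least 1 FPKM, none was 2-fold apart from media in any inoculated library. Staying within 2-fold of media in all 3 inoculated libraries was common, as 76.6% of all features did so. TRIM28, the corepressor that KRAB zinc finger proteins bring to endogenous retroviruses, had 51.7, 49.9, 50.1 and 53.8 FPKM. SETDB1, the histone methyltransferase that TRIM28 recruits, had 13.6, 16.4, 17.9 and 16.8 FPKM. DNMT1, which maintains DNA methylation, had 7.75, 10.3, 11.7 and 10.6 FPKM. The part of these genes in the POL levels was not tested.

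Of 15 restriction genes, 1 was at least 2-fold above media for MRSA, 2 for PA and 1 for MRSA + PA, and none was below. These counts were close to the share of all features, of which 8.47%, 10.05% and 7.78% were higher. MX1, the interferon-induced GTPase, had 2.90, 12.5, 13.0 and 7.64 FPKM, and MOV10, a helicase that limits LINE-1 movement, had 5.33, 8.76, 12.4 and 8.63 FPKM. Of 13 nucleic acid sensing genes, 6 were at least 2-fold above media for MRSA, 5 for PA and 5 for MRSA + PA, and none was below, beside the same shares of all features. TLR7 and TLR8, endosomal receptors for single-stranded RNA, had 5.50, 17.9, 15.0 and 16.2 FPKM and 4.93, 21.0, 21.7 and 16.1 FPKM. ZBP1, a sensor of Z-form nucleic acid, had 0.730, 3.60, 3.59 and 3.25 FPKM, and TMEM173, the STING adaptor of cytosolic DNA sensing, had 9.23, 19.1, 18.9 and 19.1 FPKM. These 4 sensing genes were lowest in media, and their part in the POL levels was not tested.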

How the data were processed

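Poly(A) RNA libraries made by the authors with a TruSeq kit were sequenced on a HiSeq2500, 1 library per group and 4 in all. The deposited table gives FPKM per feature, made by the authors with STAR 2.3.0e and Cufflinks 2.1.1 (versions per the submitters' processing notes); the rat genome build is not given in the sources used here. The study's methods name a human reference and annotation of an Ensembl release, whereas the chromosomes in the table are those of the rat. Cufflinks assembles loci outside the annotation and takes strand from splice sites, and reads that fit several copies of a repeat may be divided among features. FPKM holds no read counts, so depth and counting precision are unknown. The 3 deposited comparison tables hold the authors' scaled values, log2 ratios, p-values and q-values and were not used.

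Features named POL were split into LINE-1 and retroviral ones by the description in the table, and virus types were assigned from the protein each was matched to. Features averaging at least 1 FPKM were compared, 15944 of 27832 in all, by log2 ratio with 0.1 FPKM added, and those at least 2-fold apart were counted in 6 comparisons of libraries with Python 3.11.15, numpy 2.4.6 and pandas 2.3.3. The counting code was run on simulated data, which checks the code only and cannot show how precise counts from single libraries are. No p was computed.

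Features were named one by one if they had the 10 highest means of a span class, were among the 5 furthest from media or the 3 furthest between inoculated libraries in each direction, were listed at 0 in a library, or were listed in tables of the study. XLOC_024069, XLOC_010064, XLOC_013048, XLOC_024116, XLOC_003383, XLOC_003547, XLOC_003548, XLOC_022511, XLOC_022512, XLOC_007637, XLOC_015666, XLOC_018005, XLOC_010784, XLOC_009661 and XLOC_026746, and the gag neighbours, were named after their values were seen. Members, gene lists and naming rule were chosen with earlier results of these data known. Alternatives covered the added FPKM, scaling, the mean limit, the fold, span and features at 0.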

Additional observations from a re-analysis of the deposited data

How the results depend on the processing

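No paired analysis was possible because each group has 1 library. Of 338 recomputed values, over 36 results, 217 counts stayed within 1.5 times the reported count and 121 did not. Settings for the LINE-1, retroviral and gammaretroviral counts were chosen after seeing the data. The retroviral counts of features lower than media in PA and in MRSA + PA stayed within 1.5 times under each setting except those named for them here, and the cause of the changes was not tested. FPKM gives no depth, so the precision of low values is unknown, and no value has a replicate check.

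With 0.01 FPKM added, 4 LINE-1 features were lower than media in MRSA + PA. With 1 FPKM added, LINE-1 features lower than media numbered 0 for MRSA, 1 for PA and 0 for MRSA + PA. The POL count lower than media in MRSA became 6, and the retroviral ones there 1 higher and 6 lower. POL features in MRSA + PA were 1 higher and 9 lower against MRSA and 2 higher and 3 lower against PA, and 8 were higher in MRSA than in PA. At 1.5-fold, POL counts in MRSA against media were 17 higher and 20 lower, in MRSA + PA 9 higher against MRSA and 12 higher and 16 lower against PA, and in MRSA 23 higher and 8 lower against PA. LINE-1 counts were 12 higher and 5 lower in MRSA, 11 higher and 10 lower in PA and 6 lower in MRSA + PA, and 5 retroviral features were higher in MRSA. At a log2 difference of at least 1.5, POL features lower than media numbered 3 in MRSA and 16 in PA. MRSA + PA then had 1 higher and 9 lower than MRSA and 2 higher than PA, and MRSA 7 higher than PA. LINE-1 features lower than media were 2 in PA and 1 in MRSA + PA, and retroviral ones 2 lower in MRSA and 2 higher in PA.

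With equal FPKM sums, 20 POL and 5 LINE-1 features were lower than media in MRSA, MRSA + PA had 9 higher and 10 lower than MRSA and 9 higher than PA, and MRSA had 5 lower than PA. With equal sums over features of at least 300 bp, 3 were higher in MRSA + PA and 5 lower in MRSA, both against PA. With median-of-ratios scaling, LINE-1 features lower than media were 2 in MRSA and 4 in MRSA + PA.

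A mean of at least 5 FPKM left 16 POL features of at least 300 bp. Higher and lower than media were then 4 and 2 for MRSA, 3 and 7 for PA and 4 and 8 for MRSA + PA, of which retroviral features were 1 and 2, 2 and 7, and 2 and 8, and LINE-1 features 3 and 0, 1 and 0, and 2 and 0. MRSA + PA had 0 higher and 6 lower than MRSA and 0 higher and 2 lower than PA, MRSA had 3 higher and 1 lower than PA, and 0 were listed at 0 in MRSA. Over all 224 features, POL counts were 27 higher and 36 lower for MRSA, 35 and 53 for PA and 27 and 48 for MRSA + PA. LINE-1 counts were 20 and 19, 24 and 25, and 20 and 20, and retroviral counts 7 and 17 in MRSA, 11 higher in PA, and 7 and 28 in MRSA + PA. MRSA + PA had 20 higher and 38 lower than MRSA and 15 and 35 against PA, and MRSA 31 and 25 against PA. Media listed 16 at 0, MRSA 18, PA 9 and MRSA + PA 17.

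Among features above 0 in all 4 libraries, 6 POL and 3 LINE-1 features were higher than media in PA, 5 LINE-1 features were higher in MRSA + PA, and in MRSA 0 LINE-1 features were lower and 1 retroviral feature higher. In MRSA + PA 1 was higher than in MRSA, and in MRSA 0 were lower than in PA. A span limit of 200 bp left 1 feature in the short class and one of 500 bp 9. Counting values under 0.1 FPKM as 0 gave 1 feature in PA.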
